A study of Mus musculus with 72 samples.

Results

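The translation initiation factors (eIFs) and elongation factors (eEFs) were examined in hind leg muscle and in brain of wild-type (WT) and Klotho heterozygous (KlHET) mice after neuromuscular electrical stimulation (NMES). Members were the genes whose symbol starts with Eif or Eef followed by a number from 1 to 6, leaving out Eif2s3x, Eif2s3y, Eif1ax, Eif2ak2, Eef1e1 and symbols ending in -ps. The muscle table held 60 members among its 13543 genes, the brain table held 61 among its 15431, and 60 were in both. Eif4a3l1 was in the brain table only. All members passed the filter on low counts, so 60 of 13499 genes tested in muscle and 61 of 15401 in brain were members. Most members are factors of initiation or elongation or act directly on one, and the symbol also takes in Eif4a3, known as the helicase of the exon junction complex.

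The mice were 2 months old and bred internally. The KlHET mice, with 1 disrupted Klotho allele, were of the line B6;129S5-Kl tm1Lex/Mmucd. The sources used here name no strain for the WT mice. NMES mice received 9 mA to both hind legs under isoflurane in 5 sessions, 1 every other day, and control mice received 15 min of isoflurane on the same days, so all groups shared the anesthetic. Tissue was taken 24 h after the last session, from the tibialis anterior and extensor digitorum longus and from brain, which the methods of the study describe as prefrontal cortex. For each tissue, libraries came from 6 control and 6 NMES mice of the WT genotype and from 12 control and 12 NMES mice of the KlHET genotype, 1 per animal and tissue. The labels give these numbers, and the legends of the study state a smaller number of KlHET control mice. Muscle and brain libraries came from the same animals. WT and KlHET animals carried different series of identifiers, so that genotype and cohort cannot be told apart.

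Translation starts when eIF2 carries the initiator tRNA to the small ribosomal subunit, with eIF3 as a scaffold and eIF1 and eIF1A guarding the choice of start codon. The mRNA is recruited through its cap by eIF4E, which with the scaffold eIF4G and the helicase eIF4A forms eIF4F. The eIF4E-binding proteins block that step until mTORC1 phosphorylates them, and kinases that phosphorylate eIF2 alpha slow initiation under stress by trapping the exchange factor eIF2B. In elongation eEF1A delivers aminoacyl-tRNA, eEF1B recharges eEF1A with GTP, and eEF2 moves the ribosome along the mRNA. eEF1A has an isoform, eEF1A2, that replaces eEF1A1 in adult muscle fibres and neurons.

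Muscle libraries held 14.8 to 24.5 M reads and brain libraries 16.97 to 27.99 M. The tissues matched their labels by markers: 7 muscle fibre genes summed to between 63564 and 106149 CPM (the reads of a gene after scaling each library to a common total) in muscle, whereas 3 of them were in the brain table and summed to between 6.44 and 15.7 CPM. Klotho was not in the muscle table used here, and in brain its medians were 3.25 CPM in WT control, 3.39 CPM in WT NMES, 2.85 CPM in KlHET control and 2.74 CPM in KlHET NMES, with ranges that overlapped. The level of this transcript therefore did not separate the genotypes in these libraries. Mitochondrial transcripts took 6.44 to 33.8% of a muscle library, and the lowest share belonged to KlHET NMES replicate 9, which stood apart from the others. Muscle WT control replicate 3 also had a low share for its group, 18.7% against 26.1 to 33.4% in the other WT control libraries. Xist was above the Y-linked genes in 3 of 6 WT control, 3 of 6 WT NMES, 7 of 12 KlHET control and 8 of 12 KlHET NMES muscle libraries, so both sexes were in every group. Libraries are numbered within a group only to name them.

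The promoters of the eEF1A pair are shown because the level of Eef1a1 separated the tissues and that of Eef1a2 did not. They are RefSeq sequences of GRCm38.p6, from 120 bases before to 10 bases after the annotated start, printed along the gene's own strand, which is the minus strand for both. Capitals mark the first 10 transcribed bases. The start is the one in the RefSeq table, and the gene spans printed further on are from another annotation that joins all its transcripts of a gene, so a start can lie inside its gene's span, as it does for Eef1a1, Eif1b, Eif4e and Eif5a.
Eef1a1 (chr9:78481715-78481844): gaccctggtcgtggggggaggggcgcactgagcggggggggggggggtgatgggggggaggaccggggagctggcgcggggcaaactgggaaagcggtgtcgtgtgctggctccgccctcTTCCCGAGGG
Eef1a2 (chr2:181157006-181157135): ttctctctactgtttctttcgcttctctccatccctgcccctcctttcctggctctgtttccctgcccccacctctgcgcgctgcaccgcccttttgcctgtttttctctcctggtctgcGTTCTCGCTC

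The next set is shown because these 6 members were lower in KlHET than in WT muscle after NMES and hold an E-box. A window from 250 bases before to 50 bases after the start was available in RefSeq for 47 members. The E-box CACGTG, which reads the same on both strands and is a binding motif of MYC, TFEB and other basic helix-loop-helix factors, was present in a window of 12 of these 47 members (25.5%), against 8.09% of 27025 genes. Some genes have windows at several starts, and by window it was in 14 of 62 for the members (22.6%) and in 7.15% of 32851 for all genes. Of the members lower in KlHET muscle after NMES, 8 had a window and 6 held the E-box, and of the members that were higher, 4 had a window and 2 held it, in Eef2 and Eif3a. The share among all genes called lower or higher was not counted, so these counts have no background beside them. The 27025 genes also include genes that were not tested here. A match is a description of the letters, and binding was not measured. Each line gives 60 bases along the gene's strand with the E-box in capitals.
Eif1b (chr9:120492555-120492614, plus strand): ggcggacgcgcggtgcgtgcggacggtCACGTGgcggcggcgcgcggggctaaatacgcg
Eif3f (chr7:108934320-108934379, plus strand): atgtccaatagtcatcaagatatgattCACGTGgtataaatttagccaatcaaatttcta
Eif3k (chr7:28981900-28981959, minus strand): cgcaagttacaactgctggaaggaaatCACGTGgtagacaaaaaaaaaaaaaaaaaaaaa
Eif4a1 (chr11:69672580-69672639, minus strand): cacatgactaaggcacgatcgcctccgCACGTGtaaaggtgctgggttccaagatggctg
Eif4e (chr3:138527177-138527236, plus strand): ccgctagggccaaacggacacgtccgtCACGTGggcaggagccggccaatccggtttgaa
Eif5a (chr11:69921428-69921487, minus strand): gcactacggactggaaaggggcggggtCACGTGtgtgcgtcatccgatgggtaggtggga

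Searched in the same windows on both strands, the ETS motif CCGGAAG was in a window of 16 of 47 members (34.0%) against 9.93% of all genes. The CRE motif TGACGTCA was in 1 of 47, that of Eef2, against 2.03%. The TATAAA motif was in 4 of 47 (8.51%) against 15.7%. The letters of TATAAA and CACGTG both occurred in the Eif3f sequence printed above.

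The summed level of the members was 6473 to 9305 CPM in muscle (median 7502) and 9269 to 10692 CPM in brain (median 9598). Per kilobase of exon, member medians ran from 0.569 CPM per kb for Eif5a2 to 572 CPM per kb for Eef1a2 in muscle, with a median of 15.7, and from 1.38 for Eef2kmt to 685 for Eef1a2 in brain, with a median of 13.9. The tables of the 2 tissues were normalized separately, so levels across them are set side by side without a test. In bulk tissue, fewer cells of a type and less RNA per cell cannot be told apart.

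On the per-kilobase scale Eef1a2 stood highest in both tissues. Eef2, the translocase, had a median of 269 CPM per kb in muscle and 378 in brain. Eif5a, whose hypusine-modified product helps the ribosome through difficult peptide bonds, was at 111 and 127. Among initiation factors, Eif1 reached 136 CPM per kb in muscle and 80.6 in brain, and Eif4a2, the helicase isoform of differentiated tissue, 76.1 and 103. In the eIF3 complex the level per kilobase differed widely between subunits that are thought to assemble together: Eif3h was highest in both tissues, at 61.1 and 72.0 CPM per kb, and the lowest subunits were Eif3d in muscle, at 6.54, and Eif3j1 in brain, at 3.44. This order depends on the length of all annotated exons, 1.61 kb for Eif3h, 4.97 kb for Eif3d and 5.83 kb for Eif3j1. By median CPM, Eif3c was the highest subunit, at 130 in muscle and 215 in brain, while Eif3d and Eif3j1 stayed lowest. Eif3j1 is near-identical to Eif3j2, so reads could be split between them. The eIF2 alpha kinases were low, and the highest of the 3 was Eif2ak1, the heme-regulated kinase HRI, at 7.57 CPM per kb in muscle and 13.7 in brain.

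**Figure D1:**
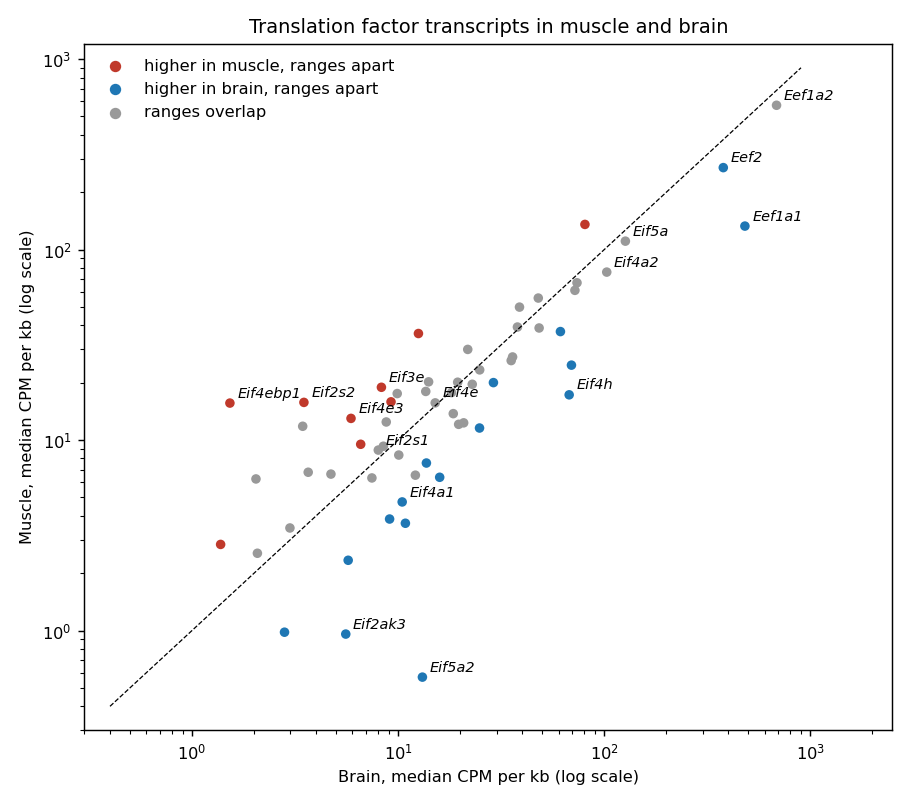
Median level of each of the 60 members in muscle (vertical axis) against brain (horizontal axis), both in CPM per kilobase on log axes, 36 libraries per tissue. Red points are the 9 members above brain in every muscle library, blue points the 16 above muscle in every brain library, grey points the 35 whose ranges overlap, and the dashed line marks equal levels. The same counts over all genes were not made.

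Of the 60 members in both tables, 16 were higher in every brain library than in any muscle library, 9 were higher in every muscle library, and 35 had overlapping ranges. The same counts over all genes were not made, so they do not set the members apart from other genes. Mitochondrial transcripts took 6.44 to 33.8% of a muscle library and 1.68 to 5.68% of a brain library. The part of this in the tissue differences was not tested. The muscle to brain ratio of median CPM was 0.891 over the members. The 9 muscle-high members were Eef2kmt, Eif1, Eif2a, Eif2b1, Eif2s2, Eif3e, Eif3j2, Eif4e3 and Eif4ebp1. Eif4ebp1, the inhibitor of cap binding that mTORC1 phosphorylates, had the highest ratio, with a median of 34.3 CPM in muscle and 3.35 CPM in brain, a ratio of 10.2. Eif2s2, the beta subunit of eIF2, followed at 106 and 23.6 CPM, a ratio of 4.52, and per kilobase it was the highest of its group in muscle, at 15.8 CPM per kb against 8.86 for Eif2s1, and below Eif2s1 in brain, at 3.49 against 8.01.

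At the other end stood Eif5a2, the isoform of eIF5A, with 2.86 CPM in muscle and 65.9 CPM in brain, a ratio of 0.0434. Eif2ak3, the endoplasmic reticulum kinase PERK, had 5.77 and 33.6 CPM (0.172), and Eif4h, a cofactor of the helicase, 95.9 and 375 CPM (0.256). Eif1b, a paralog of Eif1, was also brain-high, at 27.8 and 77.9 CPM (0.357), whereas Eif1 itself was muscle-high, at 284 and 169 CPM (1.68). Eif4a1 was at 20.5 and 45.3 CPM (0.452).

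Eef1a1 separated the tissues, whereas Eef1a2 did not. In muscle Eef1a1 (chr9:78478449-78489151, mm10) lay between 214 and 488 CPM with a median of 331, and Eef1a2 (chr2:181147653-181157014) between 878 and 1392 CPM with a median of 1192. In brain Eef1a1 lay between 1039 and 1588 CPM (median 1199) and Eef1a2 between 1236 and 1594 CPM (median 1427). The ranges of Eef1a2 overlapped, and Eef1a1 was lower in every muscle library than in any brain library. Within a library, Eef1a2 was 2.17 to 5.90 times Eef1a1 in muscle (median 3.65) and 0.885 to 1.42 times in brain (median 1.18), and the ranges did not overlap. Corrected for length, the median ratios were 4.37 in muscle and 1.41 in brain. Eef1a1 shares near-identical sequence with 8 pseudogenes, which could take or give reads, and Eef1a2 with none.

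**Figure D2:**
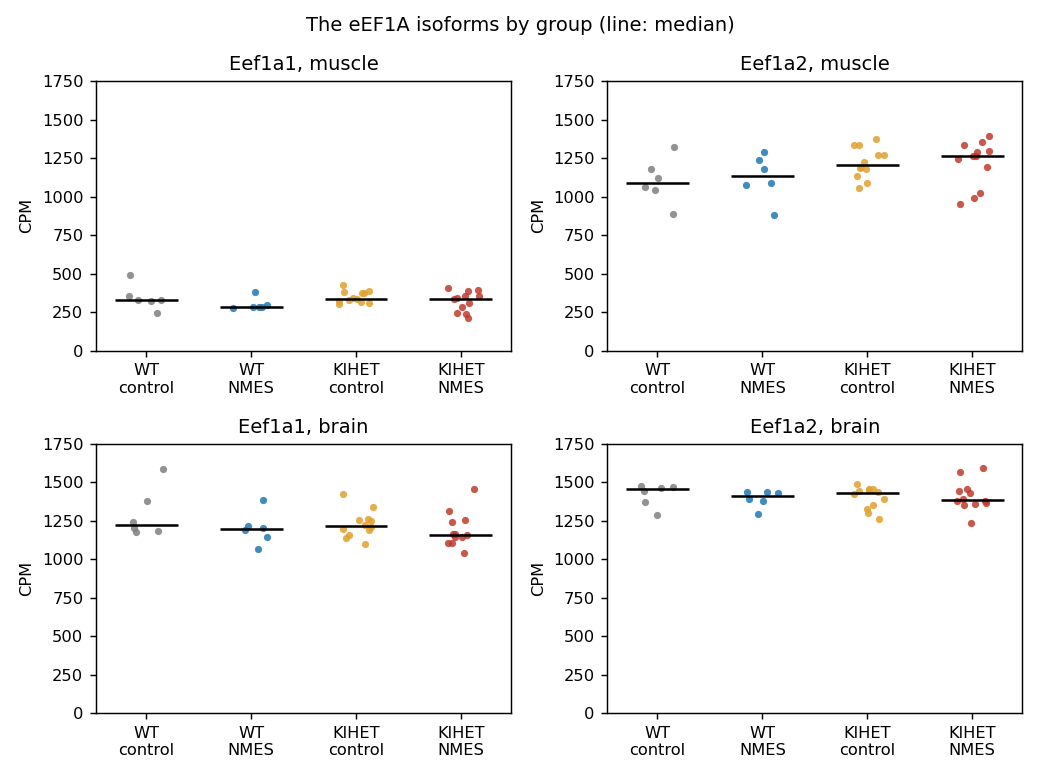
CPM of Eef1a1 and Eef1a2 in every muscle and brain library by group, each point 1 animal and the black line the group median. Muscle Eef1a1 lies between 214 and 488 CPM, below all brain libraries (1039 to 1588 CPM), whereas Eef1a2 overlaps between the tissues.

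Neither genotype nor NMES shifted the isoform ratio beyond its spread. The log2 ratio of Eef1a2 to Eef1a1 in muscle was 1.70 ± 0.42 in WT control and 1.90 ± 0.37 in WT NMES (SD, n = 6 each), and 1.80 ± 0.26 in KlHET control and 1.93 ± 0.38 in KlHET NMES (SD, n = 12 each). In brain the same groups were at 0.14 ± 0.18, 0.22 ± 0.18, 0.19 ± 0.16 and 0.25 ± 0.17. Of 8 group comparisons, none passed after adjustment over all 8. The differences ran from 0.03 to 0.20 on the log2 scale, with 2-sided permutation p between 0.315 and 0.852 (exact where a group had 6 animals) and adjusted p between 0.724 and 0.852.

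In muscle, NMES was followed by a small rise of 1 member, Eif3g. With both genotypes averaged, 1 of 60 members (1.67%) passed adjusted p 0.05 against 1.78% of all genes tested, 1.27% higher and 0.511% lower, so the members' share was close to the background. The group values below are CPM rescaled by TMM factors, which is the scale of the test, and differences are log2 fold changes ± SE. Eif3g (chr9:20894349-20898623), an RNA-binding subunit of eIF3, was at 37.1, 37.6 and 40.2 scaled CPM in WT control (lowest, median, highest) and at 40.8, 44.0 and 51.5 in WT NMES. In KlHET it was at 31.5, 37.0 and 41.9 in control and at 33.7, 40.7 and 48.1 after NMES. The WT groups did not overlap, whereas the KlHET groups did, with 5 of 12 NMES libraries above every control. The difference was 0.18 ± 0.05 (limma, adjusted p = 0.0401). It passed in 20 of 36 refits that each left out 1 library, with adjusted p from 0.0214 to 0.102, and was lost without any of WT control 1, 2, 4, 5 or 6, WT NMES 3 to 6, KlHET control 3, 6, 11 or 12, or KlHET NMES 2, 6 or 7. With total-count scaling in place of TMM the difference was 0.12 and no member passed.

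Members next in order did not pass. Eif4ebp1 was at 24.4, 30.4 and 36.7 scaled CPM in WT control and 29.1, 37.8 and 48.0 in WT NMES, and at 25.2, 31.2 and 38.3 in KlHET control and 25.0, 36.9 and 55.5 in KlHET NMES. All of these ranges overlapped, and the difference was 0.29 ± 0.08 (limma, adjusted p = 0.0599). Eif4e3, a cap-binding relative of eIF4E, differed by 0.20 ± 0.06 (adjusted p = 0.0619), Eif2d, an eIF2-independent tRNA carrier, by 0.16 ± 0.05 (0.0697), and Eif5b, which joins the ribosomal subunits, by 0.22 ± 0.07 (0.0743), by limma. The main elongation factors were nearer to 0: Eef1a1 at -0.10 (adjusted p = 0.459), Eef1a2 at 0.07 (0.609) and Eef2 at -0.09 (0.522). Eif4e was at 0.14 (0.166), Eif5a at 0.13 (0.127), Eif2s1, the regulatory alpha subunit of eIF2, at -0.03 (0.816), and Eif2b5, the catalytic subunit of eIF2B, at 0.06 (0.484). Over the 60 members the median difference was 0.06 with 39 above 0, against a median of -0.01 over all genes, and 17 members had unadjusted p below 0.05. Counts at unadjusted p are given here and below without the share over all genes, so they are not set against a background. Of the 14 eIF3 members 12 were above 0 with 1 past the test, and all 5 eIF2B subunits were above 0 with none past it. These signs are under TMM scaling, and with total-count scaling 9 of the 60 members change sign.

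Taken by genotype, no member passed. In WT, 0 of 60 members were called against 0.0148% of all genes by limma, 8 members had unadjusted p below 0.05, and edgeR and DESeq2 also called 0. The smallest p was for Eif5a and Eif3g, both at 0.22 (SE 0.07 and 0.08). In KlHET, 0 were called against 0.644% of genes by limma, 19 had unadjusted p below 0.05, edgeR called 0 and DESeq2 called 5. The share of all genes that DESeq2 called is not given here, so its 5 calls have no background beside them. Eif3e had the smallest p, at -0.21 ± 0.06 (limma, adjusted p = 0.106). With sex, read from Xist against Y-linked genes, as a covariate, Eif3e fell in KlHET after NMES by 0.22 and passed. The difference of the NMES response between genotypes was not detectable: 0 of 60 members and 0% of genes were called by limma, 1 member had unadjusted p below 0.05, edgeR and DESeq2 called 0, and the largest of the leading values was 0.29 for Eif3a (adjusted p = 1.00). Fibroblast and matrix markers summed to medians of 940 CPM in WT control, 603 in WT NMES, 1227 in KlHET control and 863 in KlHET NMES. Endothelial markers were at 369, 256, 494 and 350 CPM in the same order. Within each genotype the ranges of these sums overlapped between control and NMES. By limma 0 genes were called lower in WT, these markers included. The part of these markers in the members' values was not tested.

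**Figure D3:**
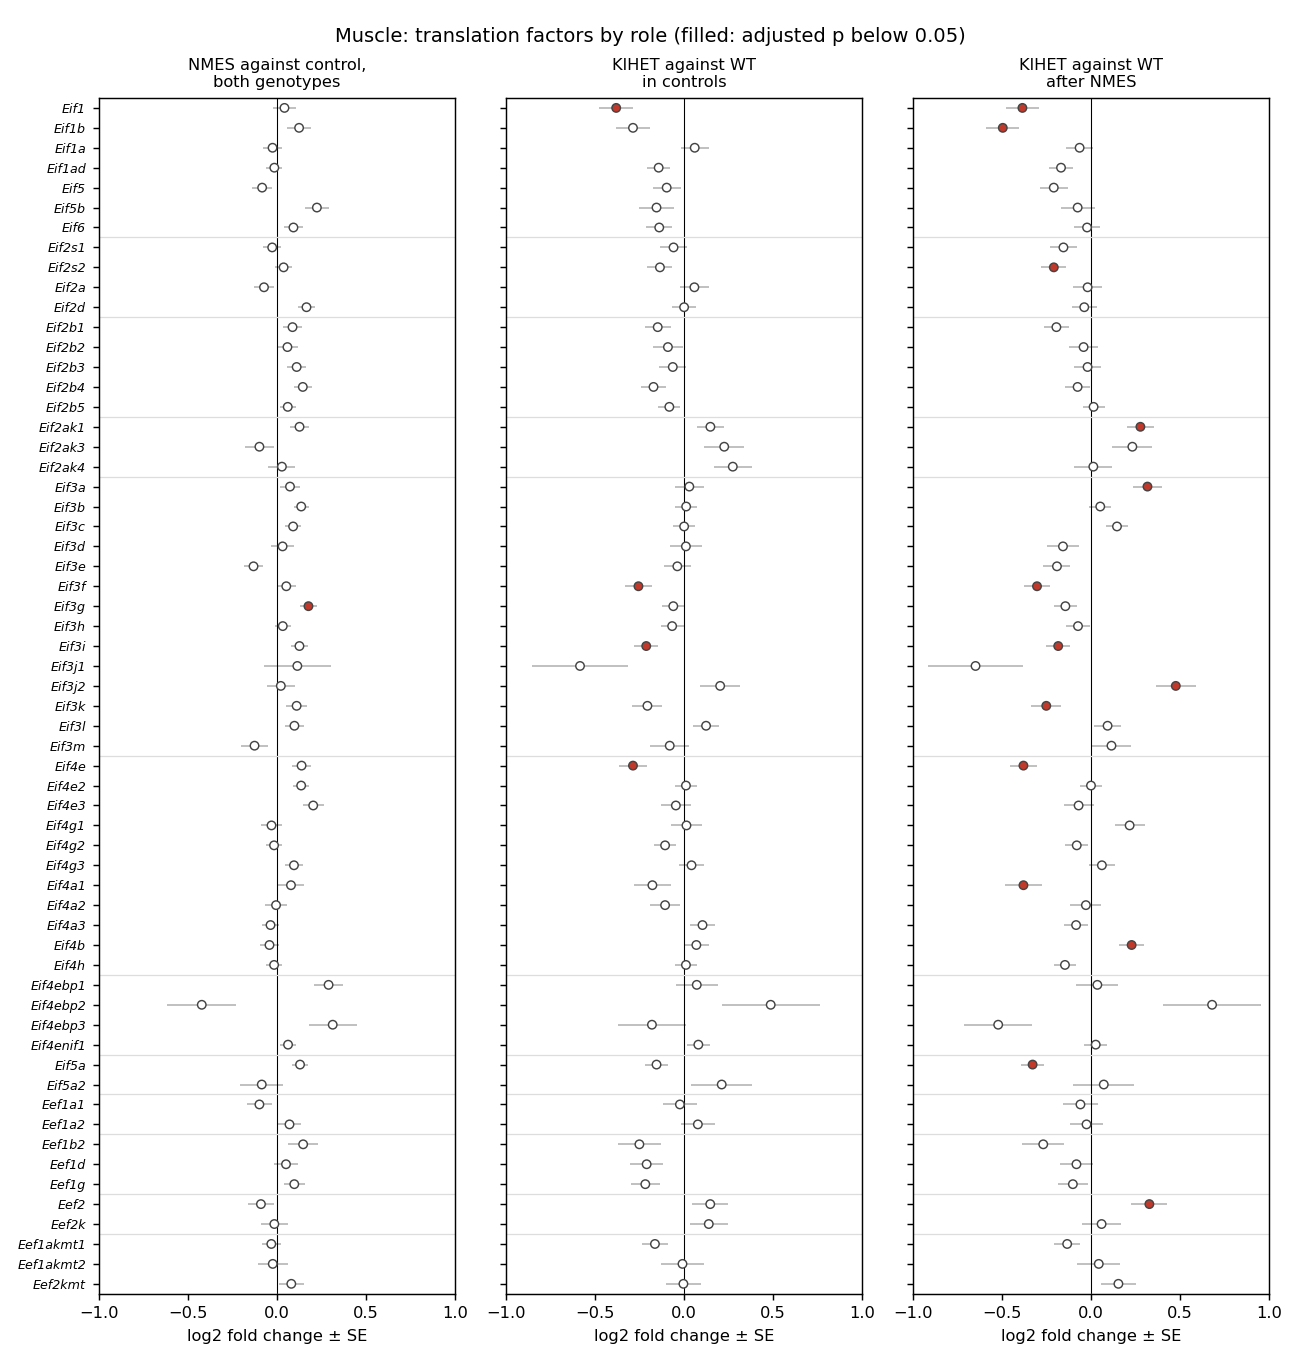
Log2 fold change ± SE in muscle of the 60 members, grouped by role, for NMES against control in both genotypes, KlHET against WT in controls and KlHET against WT after NMES. Filled points passed adjusted p 0.05: 1, 4 and 14 members. Changes are relative to TMM scaling, and with total-count scaling 9, 10 and 18 members change sign, none of them a filled point.

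Among control mice, 4 members were lower in KlHET than in WT muscle and none was higher. They were Eif1, Eif4e and the eIF3 subunits Eif3f and Eif3i. This was 6.67% of members against 6% of all genes, of which 2.59% were higher and 3.41% lower. The members' share over both directions was close to the background, and all 4 calls were on the lower side.

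Eif1 (chr11:100319885-100322096), which keeps the scanning ribosome from starting at a wrong codon, was at 300.1, 335 and 387 scaled CPM in WT control (lowest, median, highest) and at 214, 252 and 323 in KlHET control. 10 of 12 KlHET libraries lay below every WT library, and the difference was -0.38 ± 0.09 (limma, adjusted p = 0.0150). Eif4e (chr3:138526179-138559696), the cap-binding protein, was at 98.6, 103 and 118 in WT and at 70.7, 87.1 and 103 in KlHET. Here 11 of 12 KlHET libraries lay below every WT library, with a difference of -0.29 ± 0.08 (adjusted p = 0.0213, limma). Both were lost without WT control replicate 3, the library with the low mitochondrial share, and Eif4e also without WT control replicate 6.

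Eif3f (chr7:108934417-108942951), a subunit that binds mTORC1 in muscle cells, was at 117, 121 and 144 scaled CPM in WT control and at 92.0, 103 and 138 in KlHET control. 10 of 12 KlHET libraries lay below all WT libraries, and the difference was -0.26 ± 0.07 (limma, adjusted p = 0.0322). Eif3i (chr4:129591960-129600648) was at 108, 119 and 126 in WT and 91.2, 99.9 and 117 in KlHET, with 9 of 12 below all WT libraries and a difference of -0.21 ± 0.07 (limma, adjusted p = 0.0480). Eif3f passed in 28 of 36 refits that left out 1 library and was lost without WT control 2, 3 or 4 or KlHET control 5, 6, 7, 11 or 12. Eif3i passed in 15 of 36, so that leaving out any of 21 libraries ended its call, among them every WT control library except replicate 5. Without WT control replicate 3, no member and 0.873% of all genes passed. With total-count scaling none of the 4 passed, and their differences were -0.31 for Eif1, -0.21 for Eif4e, -0.18 for Eif3f and -0.14 for Eif3i.

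Other members in the control comparison did not pass. Eif1b was at -0.29 ± 0.09 (limma, adjusted p = 0.0554). The 3 subunits of the eEF1B exchange factor were between -0.25 and -0.21, all 5 eIF2B subunits were below 0, and the 3 eIF2 alpha kinases were between 0.15 and 0.27. These values are under TMM scaling, and with total-count scaling 10 members change sign in this comparison. Eef1a1 was at -0.02 (adjusted p = 0.913), Eef1a2 at 0.08 (0.666), Eef2 at 0.15 (0.395), Eif4ebp1 at 0.07 (0.761), Eif2s1 at -0.06 (0.670), Eif2b5 at -0.08 (0.438) and Eif5a at -0.15 (0.138). The members' median was -0.05 with 24 above 0, against 0.02 over all genes. At unadjusted p below 0.05 there were 16 members, given without the share over all genes. None of the adipocyte, fibroblast, endothelial or macrophage markers passed in this comparison. The slow fibre markers summed to 80.0 to 337 CPM in WT control (median 130) and 58.5 to 565 CPM in KlHET control (median 280). These ranges overlapped, and the part of slow fibres in the members' values was not tested.

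After NMES more members passed between the genotypes than in controls. The genotype by NMES interaction called 0 of 60 members and 0% of genes by limma, so a wider genotype difference after NMES was not detectable. Of 60 members 14 passed (23.3%), 9 lower in KlHET (15%) and 5 higher (8.33%), against 19.1% of all genes, 9.87% lower and 9.27% higher. The members' share was thus slightly above the background in the lower direction and slightly below it in the higher direction. The mice of this comparison were all stimulated and are different animals from those of the control comparison.

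The 9 lower members were Eif1b, Eif5a, Eif4e, Eif3f, Eif1, Eif4a1, Eif3k, Eif2s2 and Eif3i. Eif1b (chr9:120492232-120495330) was at 30.0, 36.1 and 46.2 scaled CPM in WT NMES (lowest, median, highest) and at 19.0, 26.2 and 33.4 in KlHET NMES, so that 11 of 12 KlHET libraries lay below every WT library. The difference was -0.50 ± 0.09 (limma, adjusted p = 0.000678). Eif5a (chr11:69916714-69921958) was at 284, 324 and 339 in WT and at 213, 249 and 302 in KlHET, with 10 of 12 below all WT libraries and a difference of -0.33 ± 0.06 (limma, adjusted p = 0.000967). Eif4e was at 104, 118 and 134 in WT and 79.3, 90.0 and 115 in KlHET, again with 10 of 12 below, and differed by -0.38 ± 0.08 (limma, adjusted p = 0.00108). These 3 members passed in all 36 refits that left out 1 library and under every alternative run, total-count scaling included, where they were at -0.36, -0.19 and -0.24.

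Eif3f was at 117, 129.9 and 156 scaled CPM in WT NMES and 93.6, 107 and 119 in KlHET NMES, with 10 of 12 below all WT libraries (-0.30 ± 0.07, limma adjusted p = 0.00442). Eif1 was at 301, 334 and 449 in WT and 204, 258 and 379 in KlHET, with 11 of 12 below (-0.39 ± 0.09, limma adjusted p = 0.00472). Both were thus lower in both pairs of groups and kept their call in all 36 refits, but not with total-count scaling, where they were at -0.17 and -0.25. Eif1 shares near-identical sequence with 13 other genes, 12 of them pseudogenes, and Eif4e and Eif5a with 1 each, so their values carry that uncertainty. Eif4a1 (chr11:69666936-69672423), the helicase isoform of growing cells, was at 20.6, 24.6 and 34.2 in WT and 14.5, 18.4 and 29.1 in KlHET, with 8 of 12 below all WT libraries (-0.38 ± 0.11, limma adjusted p = 0.0116). It was lost without WT NMES replicate 5 and shares sequence with 3 pseudogenes.

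The remaining lower members were closer to the threshold. Eif3k (chr7:28971372-28981864) was at 65.0, 73.5 and 80.2 scaled CPM in WT NMES and 50.2, 63.0 and 76.5 in KlHET NMES (-0.25 ± 0.08, limma adjusted p = 0.0312). Eif2s2 (chr2:154871410-154892935) was at 103, 119 and 133 in WT and 78.7, 102 and 118 in KlHET (-0.21 ± 0.07, limma adjusted p = 0.0320). Eif3i was at 114, 127 and 136 in WT and 84.7, 115 and 127 in KlHET (-0.18 ± 0.07, limma adjusted p = 0.0456). All 3 pairs of ranges overlapped, and the calls held in 30, 31 and 22 of 36 refits that left out 1 library. Eif3k was lost without WT NMES 1, 2 or 5 or KlHET NMES 8, 9 or 10, Eif2s2 without WT NMES 2, 3 or 5 or KlHET NMES 9 or 10, and Eif3i without any of 14 libraries, among them WT NMES 2 to 6.

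The 5 higher members were of different roles. Eif3a (chr19:60761117-60790658), the large scaffold subunit of eIF3, was at 89.8, 95.1 and 103 scaled CPM in WT NMES and 99.8, 114 and 151 in KlHET NMES, with 10 of 12 KlHET libraries above every WT library (0.32 ± 0.08, limma adjusted p = 0.00594). Eif2ak1 (chr5:143817788-143904251) was at 35.2, 40.6 and 43.7 in WT and 41.0, 47.4 and 57.3 in KlHET, also with 10 of 12 above (0.28 ± 0.08, limma adjusted p = 0.00994). Eif3j2, a near-copy of the eIF3 subunit gene Eif3j1, was at 61.2, 69.2 and 88.2 in WT and 59.3, 107 and 118 in KlHET, with 10 of 12 above and 1 below (0.47 ± 0.11, limma adjusted p = 0.00369). These 3 passed in all 36 refits and in every alternative. For Eif3j2 such runs cannot tell whether reads were split with Eif3j1, which lay in the other direction in this comparison.

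Eef2 (chr10:81176631-81182498) was at 613, 729 and 876 scaled CPM in WT NMES and 702, 886 and 1157 in KlHET NMES, with 6 of 12 KlHET libraries above every WT library (0.33 ± 0.10, limma adjusted p = 0.0217). Eif4b (chr15:102073773-102097173), which stimulates the helicase, was at 129.99, 156 and 169 in WT and 152, 170.4 and 220.2 in KlHET, with 7 of 12 above (0.23 ± 0.07, limma adjusted p = 0.0238). Both overlapped between the groups, and both were lost without WT NMES replicate 4 or 5. A fit of the 2 compared groups alone ended the calls of Eef2, Eif4b, Eif4a1, Eif3k, Eif2s2 and Eif3i. By role, under TMM scaling, all 7 members of the start-codon and joining group were below 0, with 2 past the test. All 4 of the eIF2 group, which takes in Eif2a and Eif2d, were below 0 with 1 past it. The 3 eIF2 alpha kinases were above 0 with 1 past it. With total-count scaling 18 members change sign in this comparison. The share of all genes on each side of 0 is not given here. The 14 eIF3 members divided, with 2 higher and 3 lower.

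**Figure D4:**
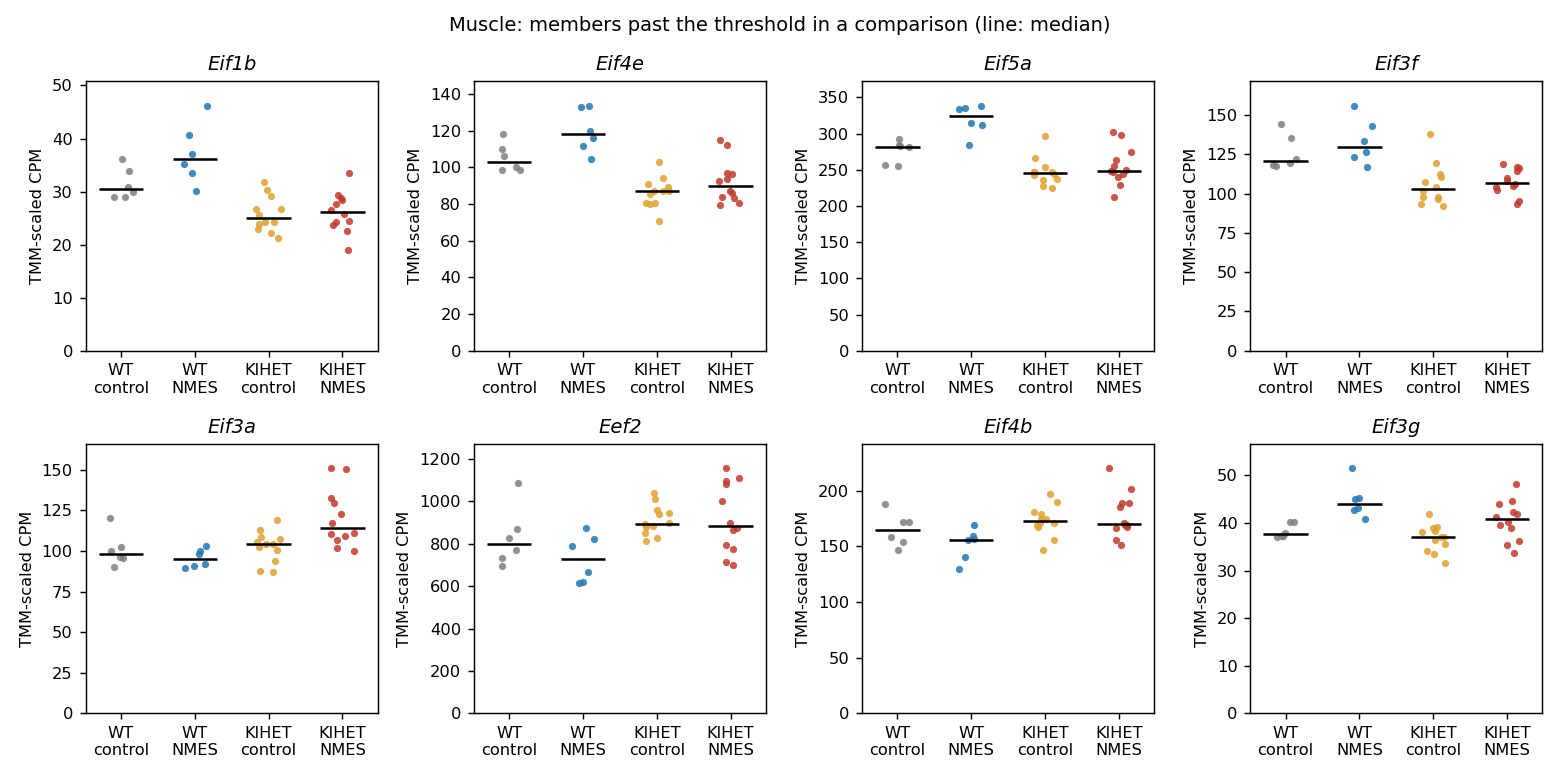
TMM-scaled CPM in muscle of 8 members (Eif1b, Eif4e, Eif5a, Eif3f, Eif3a, Eef2, Eif4b and Eif3g) in every library of the 4 groups, with the line at the group median. Eif1b, Eif4e, Eif5a and Eif3f sit lower in KlHET NMES than in WT NMES, whereas Eif3a, Eef2 and Eif4b sit higher, and Eif3g separates WT NMES from WT control. With total-count scaling, Eif3f and Eif3g keep their direction without passing.

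The direction of the split depended on the scaling. Total-count scaling moved the median of all genes after NMES from 0.02 to 0.14, a shift of 0.12, and under it 15 members passed, 12 higher and 3 lower in KlHET. Of these, 8 were shared with the 14 called under TMM scaling (Eef2, Eif1b, Eif2ak1, Eif3a, Eif3j2, Eif4b, Eif4e and Eif5a), in the same direction. The other 7 were Eif3c, Eif3l, Eif4g1, Eif4g3, Eif4ebp2, Eif2ak3 and Eef2kmt, all higher, and 18 of 60 members changed sign between the scalings. Without WT NMES replicate 5, 8 members passed under TMM scaling with 11.7% of all genes, and without KlHET NMES replicate 9, 13 passed. The shares of all genes under total-count scaling and without KlHET NMES replicate 9 are not given here.

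Medians of several properties of the libraries differed between the genotypes after NMES, with ranges that overlapped. Mitochondrial transcripts had a median share of 30.0% in WT NMES (26.4 to 33.8%) and 25.6% in KlHET NMES (6.44 to 30.6%). Adipocyte markers had a median difference of 0.85 with 6 of 7 above 0 and 1 past the test, and their summed level was 780 to 1573 CPM in WT NMES and 945 to 2333 CPM in KlHET NMES. Fibroblast and matrix markers had a median of 0.49 with 6 of 6 above 0 and 1 past the test, at 465.6 to 797 CPM and 396 to 1846 CPM summed, and macrophage markers a median of 0.46 with 5 of 6 above 0 and 1 past it. Endothelial markers had a median of 0.27 with 5 of 6 above 0 and 0 past the test, and their summed level had a median of 256 CPM in WT NMES and 350.2 CPM in KlHET NMES. Among controls the median fibroblast sum was also higher in KlHET (1227 against 940 CPM), as was the endothelial sum (494 against 369 CPM). The adipocyte sum was not, at 1258 CPM in KlHET control and 1300 CPM in WT control. The fold change also followed exon length over all genes, with a Spearman correlation of 0.36 across 12981 genes and 0.23 across the 60 members, and the called members had a median exon length of 4.47 kb where higher and 2.89 kb where lower. The same correlation in controls was 0.37 and 0.26. Genes are not independent replicates, and the part of these properties in the members' differences was not tested.

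Lists of genes that act beside the factors in the pathway were read in the same comparisons. After NMES 14 of their 63 entries passed (22.2%), 6 higher and 8 lower, against 19.1% of all genes, 9.27% higher and 9.87% lower, so their share was close to the background. Sesn2 is on both the mTORC1 and the integrated stress response list and counts as an entry of each. After NMES, 5 of 16 mTORC1 genes were higher in KlHET than in WT muscle, namely the kinase Mtor (0.42), its partner Rptor (0.28), the inhibitors Tsc1 (0.39) and Tsc2 (0.24), and Sesn3 (0.55), and 1 was lower, the activator Rheb (-0.22). Of 10 genes of the integrated stress response, Asns, asparagine synthetase, was higher (0.95) and Ddit3, the transcription factor CHOP, lower (-0.63). Of 13 cap and poly(A) regulators, Pabpc1 (-0.26), Paip2 (-0.19) and Mcts1 (-0.36) were lower. Of 9 enzymes of hypusine, diphthamide and other modifications of elongation factors, Dhps, which starts the hypusine modification of eIF5A, was lower (-0.26), as was Dph3 (-0.44). Of 5 termination and recycling genes Pelo was lower (-0.44), and none of 10 mitochondrial translation factors passed. With total-count scaling, Mtor, Rptor, Tsc1, Tsc2, Sesn3, Asns, Ddit3 and Dph3 kept their calls, and Rheb, Pabpc1, Paip2, Mcts1, Dhps and Pelo did not pass.

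In the control comparison the same lists held 7 of 63 entries past the test (11.1%), 1 higher and 6 lower, against 6% of all genes, 2.59% higher and 3.41% lower. Rheb (-0.24), Paip2 (-0.20), Mcts1 (-0.29), Dph3 (-0.32), Guf1, a mitochondrial elongation factor (-0.34), and Atf4, the transcription factor of the integrated stress response (-0.23), were lower in KlHET, and Asns was higher (0.77). Asns alone kept its call with total-count scaling. For NMES against control with both genotypes averaged, 0 of the genes on these lists passed by limma.

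Some members varied widely between animals of the same group. The within-group SD on the log2 scale had a median of 0.16 over the muscle members (0.11 to 0.56) and 0.11 over the brain members (0.05 to 0.48). Eif4ebp2, an eIF4E-binding protein, had an SD of 0.56 in muscle. Its lowest, median and highest values were 18.2, 31.7 and 44.0 scaled CPM in WT control, 10.2, 21.7 and 35.4 in WT NMES, 32.3, 40.5 and 54.7 in KlHET control and 7.78, 41.2 and 49.8 in KlHET NMES. The difference between genotypes after NMES was 0.68 ± 0.27 (limma, adjusted p = 0.0790), so the largest difference of a member by size did not pass under TMM scaling. Eif4ebp3 differed by -0.52 ± 0.19 (adjusted p = 0.0509) and Eif3j1 by -0.65 ± 0.27 (adjusted p = 0.0841) in the same comparison.

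Eif3j1 on chromosome 2 and Eif3j2 on chromosome 18 are 99.4% identical over 2379 aligned bases, so the counting could split reads between them, and their values are uncertain one by one. The 12 WT animals had 19.1 to 25.0 CPM of Eif3j1 in brain (median 21.9) and 64.3 to 104 CPM in muscle. The 24 KlHET animals fell into 3 separate ranges of brain Eif3j1, seen after the values were sorted. In 3 animals, 1 control and 2 NMES, it was 5.89 to 7.24 CPM. In 9 animals, 5 control and 4 NMES, it was 12.4 to 15.2 CPM, and in 12 animals, 6 of each, 18.2 to 25.0 CPM. Each range thus held animals of both treatments.

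Muscle of the same animals gave the same order. Muscle Eif3j1 was 20.4 to 22.1 CPM in the first 3 animals, 35.8 to 55.1 CPM in the next 9 and 57.7 to 98.8 CPM in the other 12, again without overlap. Eif3j2 ran the other way in brain, at 40.6 to 43.0, 34.4 to 40.7 and 25.7 to 31.8 CPM, where the first and second ranges met. In muscle Eif3j2 was 110 to 124, 81.2 to 115 and 61.1 to 145 CPM, where the value of 145 belonged to KlHET NMES replicate 9. The sum of both genes in brain varied less, with medians of 47.2, 51.3 and 49.4 CPM in the 3 ranges and 49.7 CPM in WT. Because the ranges were read from the values themselves, no test was made of them. The Eif3j2 difference after NMES given above rests on these animals.

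**Figure D5:**
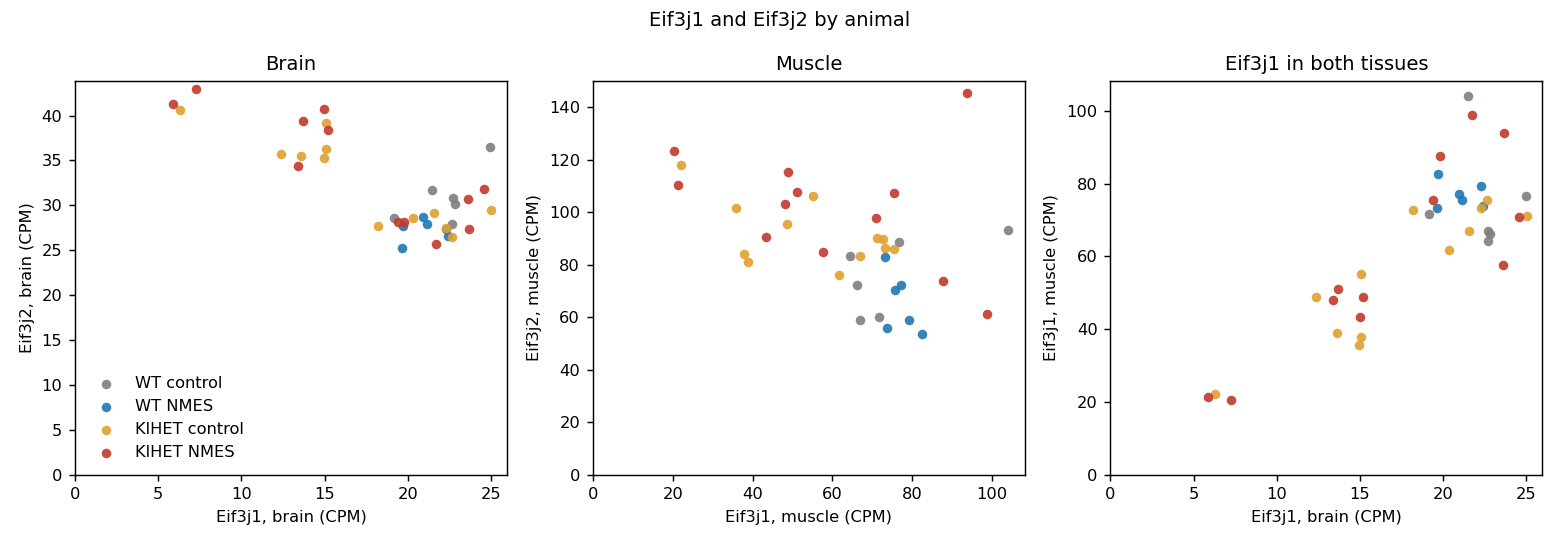
CPM by animal in 3 scatter panels: Eif3j1 against Eif3j2 in brain, the same in muscle, and Eif3j1 in muscle against brain, with WT and KlHET animals marked. Brain Eif3j1 of KlHET animals falls at 5.89 to 7.24, 12.4 to 15.2 and 18.2 to 25.0 CPM, and WT animals lie at 19.1 to 25.0 CPM.

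In brain no member passed in any comparison by limma. Of 61 members, 0 were called for NMES in both genotypes, in WT and in KlHET and for the interaction, each against 0% of all genes tested, 0 for genotype in controls against 0.0714% (0.0519% higher and 0.0195% lower) and 0 for genotype after NMES against 0.0974% (0.0584% higher and 0.039% lower). At unadjusted p below 0.05 the counts in that order were 0, 1, 0, 1, 7 and 3, given without the share over all genes. Region markers varied widely between brain libraries of every group, where 5 striatum markers summed to between 127 and 1835 CPM and 5 choroid plexus markers to between 0.719 and 1863 CPM, and the part of this spread in the members' values was not tested. edgeR called 0 throughout, and DESeq2 called 0 except for 1 member in controls, Eif3e.

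Eif3e, the eIF3 subunit known as INT6, had the smallest p in brain. It was at 58.9, 60.2 and 69.0 scaled CPM in WT control (lowest, median, highest) and at 49.2, 52.6 and 60.1 in KlHET control, with 11 of 12 KlHET libraries below every WT library. The ranges overlapped through 1 KlHET library, and the difference was -0.20 ± 0.05 (limma, adjusted p = 0.149, and DESeq2, adjusted p = 0.0317). After NMES it was at 57.2, 59.1 and 63.3 in WT and 45.1, 55.6 and 58.3 in KlHET, a difference of -0.16 (limma, adjusted p = 0.565). Eif3e shares near-identical sequence with 2 pseudogenes. Eif4ebp2 was at 0.20 in controls (adjusted p = 0.381) and Eif3j2 at 0.29 after NMES (adjusted p = 0.784). For NMES in both genotypes Eef1a1 was at -0.07, Eif6, which keeps the ribosomal subunits apart, at -0.09, Eif3f at -0.05 and Eif5a2 at 0.08, each with a limma adjusted p of 1.00.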

How the data were processed

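Paired reads of total RNA from muscle and brain came from a NovaSeq X Plus. As their methods state, the authors aligned reads to mm10 with Rsubread 2.16.1, named genes with org.Mm.eg.db 3.19.1 and used edgeR 4.0.16. The sources used here give no strand setting for the counting, so overlapping antisense genes cannot be told apart. The deposited values are CPM, each library brought to a common total, in 1 table per tissue. A column of average log2 CPM, tied to no sample, was not used, and 0 columns of sample values lacked a sample.

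CPM values were whole multiples of 1 read (100% within 1e-06), so whole reads were recovered for the depth and for the count tests. Tests used limma 3.58.1 under R 4.3.3 (trend, robust, 2-sided) on log2(TMM-scaled CPM + 0.5), with 4 group means over the 36 libraries of a tissue and Benjamini-Hochberg adjustment over all genes kept by edgeR's filter, at a threshold of 0.05. Fold changes on this scale understate changes of genes at low CPM. Isoform ratios used exact permutation tests, or 100000 resamples between the KlHET groups. Near-identical sequence (at least 95% over 300 bases) was found with blastn 2.17.0. Members were described by role, and named where they passed or, if fewer than 4 did, by smallest p up to 4, with 8 members given throughout. Alternatives were RLE size factors, total-count scaling, pseudocounts of 0.1 and 2 CPM, no filter, edgeR's quasi-likelihood test and DESeq2 1.42.0 on recovered reads, sex as a covariate (from Xist and Y-linked genes), only the 2 compared groups, and each library left out. The members and lists were chosen with earlier results of these data known.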

Additional observations from a re-analysis of the deposited data

Results flagged for a closer look

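For members that passed a test and the 8 given in every comparison, 80 sets of 6 WT libraries were examined. In 8 of them 1 library lay far from the others of its group, where chance gives about 1 in 20. In muscle, WT control replicate 3 was high for 3 members: 423 CPM of Eif1 (others 285 to 327), 132 CPM of Eif3a (89.4 to 101) and 129 CPM of Eif4e (91.8 to 104). WT NMES replicate 5 had 384 CPM of Eif1 (283 to 320), and WT NMES replicate 1 had 382 CPM of Eef1a1 (279 to 296). In brain, WT control replicate 1 had 244 CPM of Eif3a (155 to 174) and 68.1 CPM of Eif3i (80.6 to 86.6), and WT NMES replicate 1 had 56.1 CPM of Eif2b5 (60.0 to 62.2). These are CPM without TMM factors.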

How the results depend on the processing

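No paired analysis was possible because the groups compared share no animal and no replicate number in the labels (muscle and brain share animals, but were not tested against each other). For NMES against control in both genotypes of muscle, 1 member passed, and the count was 0 with total-count scaling, 2 with edgeR's quasi-likelihood test, 6 with DESeq2, 3 with sex as a covariate, and 0 to 4 when 1 library was left out. In KlHET alone it was 0, but 5 with DESeq2 and 1 with the sex covariate. For KlHET against WT in controls it was 4, but 0 with total-count scaling and 0 to 6 without 1 library, with 0 without WT control replicate 3. After NMES it was 14, but 8 when only the 2 compared groups were fitted and 8 to 22 without 1 library, from 8 without WT NMES replicate 5 to 22 without KlHET NMES replicate 5. In brain controls it was 0, but 1 with DESeq2. The cause of these shifts was not tested. These counts are given without the share of all genes called in the same setting, so they do not compare the members with a background. Leaving out 1 library gave counts of 0 in WT, in KlHET and for the interaction in muscle and in every brain comparison. The difference between groups in the mean log2 isoform ratio was also computed with 1 library left out. In muscle this difference ranged from -0.11 to 0.10 for genotype after NMES and -0.02 to 0.21 in controls. For NMES it ranged from 0.09 to 0.34 in WT and 0.08 to 0.19 in KlHET. In brain these ranges were -0.03 to 0.07, -0.01 to 0.08, 0.03 to 0.15 and 0.03 to 0.09. No called member changed sign under the alternatives run, whereas 30 named values that did not pass and lay near 0 did in at least 1 of them. Of 14 members called after NMES, 6 kept their call in every alternative and every refit without 1 library. Among them was Eif3j2, whose reads could be split with Eif3j1 in all of these runs. Depth limits only the lowest members: the fewest reads of a member in a library were 29 in muscle and 8 in brain.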
